A study of Mus musculus with 4 samples.

Results

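The MHC class I and immunoproteasome genes described here are the 10 mouse genes H2-K1, H2-D1, B2m, Tap1, Tap2, Tapbp, Psmb8, Psmb9, Psmb10 and Nlrc5, taken by name from the 32285 genes of each expression matrix. All 10 were found in the matrices, and all 10 had enough counts to be compared in every cell class set out here. They were followed through marker-defined cell classes of 4 single-cell libraries.

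MHC class I molecules display short peptides from inside the cell to CD8 T cells and are sensed by NK cells. Each molecule is a heavy chain paired with beta-2-microglobulin, and it is loaded in the endoplasmic reticulum with peptides that the TAP transporter brings in. The immunoproteasome is a form of the proteasome with exchanged catalytic subunits that is common in blood cells and is induced by interferon, and NLRC5 is a transcriptional activator of this gene set. Myeloid leukaemias are known to vary in class I expression, which bears on how T cells and NK cells see them.

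The samples were bone marrow (BM) and spleen of C57BL/6J mice, 6 to 8 weeks old, transplanted with MA9 cells, a mouse acute myeloid leukaemia driven by MLL-AF9. In the groups BM-shPrmt9 and Spleen-shPrmt9 the MA9 cells carried a doxycycline-inducible hairpin against Prmt9, an arginine methyltransferase, and in BM-Ctrl and Spleen-Ctrl they carried the control. All 4 groups received doxycycline in the drinking water for 7 days and were profiled in the same way. Each group is 1 library from a representative mouse, so no comparison has a replicate check and no test of the groups was possible. The host's own blood cells are not meant to carry the hairpin.

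Each transcript was counted through its unique molecular identifier (UMI). The libraries held 84009744 to 188030429 UMIs, and 7545 to 10175 cells per library were used, with median depths of 6305 to 10383 UMIs. UMIs were summed over the cells of a class in a library, and a level is given as CPM, counts scaled to 1e6 UMIs of that sum. A ratio is the level in the shPrmt9 library over that in the Ctrl library of the same tissue, with an exact 95% interval in parentheses. All such intervals cover counting error only. A gene was called higher or lower when the ratio passed 1.5-fold in either direction, with at least 10 UMIs over both libraries.

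Cells were put in classes by 13 lists of marker genes, and a name ending in "-like" means only that those markers led. The MA9-like cells were led by Hoxa10, Hoxa9 and Meis1 in BM-Ctrl and by Hoxa10, Hoxa11, Hoxa9 and Hoxa5 in BM-shPrmt9. Cells with both MA9 and neutrophil markers were kept apart as double-positive. The double-positive cells of bone marrow were led by Cstdc5 and Stfa1, and those of Spleen-shPrmt9 by Elane, Prtn3 and Ctsg. The granule progenitor-like class of BM-shPrmt9 was led by the eosinophil granule genes Prg2, Prg3 and Epx, so its name holds less well there. The libraries were rich in different cells. MA9-like cells numbered 1218 in BM-Ctrl, 960 in BM-shPrmt9, 15 in Spleen-Ctrl and 7 in Spleen-shPrmt9.

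The libraries also stood apart in transcripts of the sex chromosomes. Xist, the RNA that coats the inactive X chromosome of female cells, was at 6.74 CPM over all cells of BM-Ctrl, 144 in BM-shPrmt9, 0.149 in Spleen-Ctrl and 0.0823 in Spleen-shPrmt9. The Y-linked gene Ddx3y had 0 UMIs in both bone marrow libraries and was at 76.2 and 60.4 CPM in the spleen libraries. A UMI of Xist was found in 0.0750% of BM-Ctrl neutrophil-like cells against 45.5% in BM-shPrmt9. In monocyte/macrophage-like cells the shares were 0.345% and 91.3%, for B-like cells they were 2.29% and 94%, and for T-like cells 30.1% and 75.4%. In MA9-like cells they were 0.411% and 11.0%. The cells of one class in the BM libraries therefore differed in Xist as well as in arm, and the bone marrow and spleen libraries differed in Y-linked transcripts. The study describes taking both tissues from a representative mouse in each group. Whether both libraries of an arm came from the same animal was not tested. For bone marrow classes the arm and the origin of the cells cannot be told apart by label, and the members are also given in cells with and without Xist. The library pairs shared 15 to 35 cell barcodes, at most 0.405% of a library.

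Of the 10 genes, 7 lie on chromosome 17, in or near the major histocompatibility complex. In the mouse build GRCm38 (GENCODE annotation) H2-K1 spans chr17:33996017-34000347 on the minus strand and H2-D1 chr17:35262730-35267499 on the plus strand. Between them lie Psmb9 (chr17:34181987-34187764, minus), Tap1 (chr17:34187553-34197225, plus), Psmb8 (chr17:34197721-34201454, plus) and Tap2 (chr17:34203527-34216321, plus). Tapbp (chr17:33915899-33929292, plus) lies on the other side of H2-K1. The remaining genes are B2m (chr2:122147686-122153083, plus), Psmb10 (chr8:105935735-105938444, minus) and Nlrc5 (chr8:94434356-94527272, plus). Tap1 and Psmb9 run in opposite directions and their annotated 5′ ends overlap.

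The members were followed because they are known to share control elements, and their promoters show part of what they share. Shown are 125 bases upstream of the RefSeq start (GRCm38.p6) of H2-K1 (chr17:34000354-34000478, minus strand), H2-D1 (chr17:35262903-35263027, plus), B2m (chr2:122147519-122147643, plus) and Tap1 (chr17:34187380-34187504, plus), aligned so that the X2 core TGACG starts at the same base. Each is given 5′ to 3′ along its gene, with the letters of the searched motifs in capitals.
H2-K1: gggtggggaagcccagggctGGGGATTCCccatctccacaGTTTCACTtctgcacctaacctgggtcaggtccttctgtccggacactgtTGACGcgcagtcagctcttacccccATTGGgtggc
H2-D1: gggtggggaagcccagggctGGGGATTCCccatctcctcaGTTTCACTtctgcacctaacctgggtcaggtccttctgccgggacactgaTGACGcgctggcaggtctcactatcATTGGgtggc
B2m: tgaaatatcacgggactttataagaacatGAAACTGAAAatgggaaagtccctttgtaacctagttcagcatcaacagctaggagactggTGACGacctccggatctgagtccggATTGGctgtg
Tap1: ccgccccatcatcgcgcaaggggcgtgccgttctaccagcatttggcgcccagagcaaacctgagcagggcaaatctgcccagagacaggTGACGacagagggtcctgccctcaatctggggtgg

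Motifs were searched on both strands in the 250 bases before the start of 32851 RefSeq promoters, which include 8 of the 10 members, all but Tap2 and Nlrc5. The capitals mark GGGGATTCC, the core of a known NF-kappa-B element, AGTGAAAC, an interferon response core that stands on the opposite strand in H2-K1 and H2-D1, GAAA followed after 2 bases by another GAAA, a general interferon response pattern, TGACG, the X2 core of the class I enhancer, and ATTGG, its Y core. GGGGATTCC stood in H2-K1 and H2-D1 and in 0.213% of all promoters. AGTGAAAC stood in the same pair and in 0.770%. The GAAA pair was found in B2m alone among the members and in 2.98% of all promoters. TGACG was found in 5 members (H2-K1, H2-D1, B2m, Tap1 and Psmb9) and in 17.8% of promoters, and ATTGG in 6 members and 33.8%. The arrangement of TGACG followed by ATTGG with their first bases 25 bases apart, which contains both cores, was in H2-K1, H2-D1 and B2m and in only 30 promoters, 0.0913% of the total. Tap1 holds TGACG in the printed stretch without ATTGG behind it. The stretches of H2-K1 and H2-D1 had 114 of 125 bases in common (91.2%), and the other pairs 32% to 41.6%. A match is a description of the letters in this window, not a bound site.

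The classes of at least 50 cells were ranked within each library by the summed level of the 10 members. Erythroid-like cells were last in BM-Ctrl and in both spleen libraries, and MA9-like cells, which were too few to rank in spleen, were last in BM-shPrmt9. In BM-Ctrl the members made up 8554 CPM in T-like cells, 7050.3 in plasmacytoid DC-like, 6423 in B-like, 6021 in basophil-like, 5668 in monocyte/macrophage-like, 4553 in granule progenitor-like, 4282 in neutrophil-like, 2648 in MA9-like, 2289 in double-positive and 1309 in erythroid-like cells. None of these neighbours overlapped in counting error. In BM-shPrmt9 the T-like (10439 CPM) and monocyte/macrophage-like cells (10319) led and did not differ beyond counting error, and the MA9-like cells were last at 2973. There the double-positive (3332) and erythroid-like cells (3318) could not be told apart either.

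In Spleen-Ctrl the T-like cells led the ranked classes at 9257 CPM and the erythroid-like cells were last at 904, while B-like (7144) and NK-like cells (7011) overlapped. Smaller classes lay above the ranked ones in both Ctrl libraries, with monocyte/macrophage-like cells of Spleen-Ctrl (24 cells) at 13939 CPM and NK-like cells of BM-Ctrl (40 cells) at 9834. In Spleen-shPrmt9 the monocyte/macrophage-like cells led at 16964 CPM and the erythroid-like cells were last at 1303. The neighbours plasma-like (10132) and neutrophil-like (9982) overlapped there, as did double-positive (8427) and B-like (8332).

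**Figure D1:**
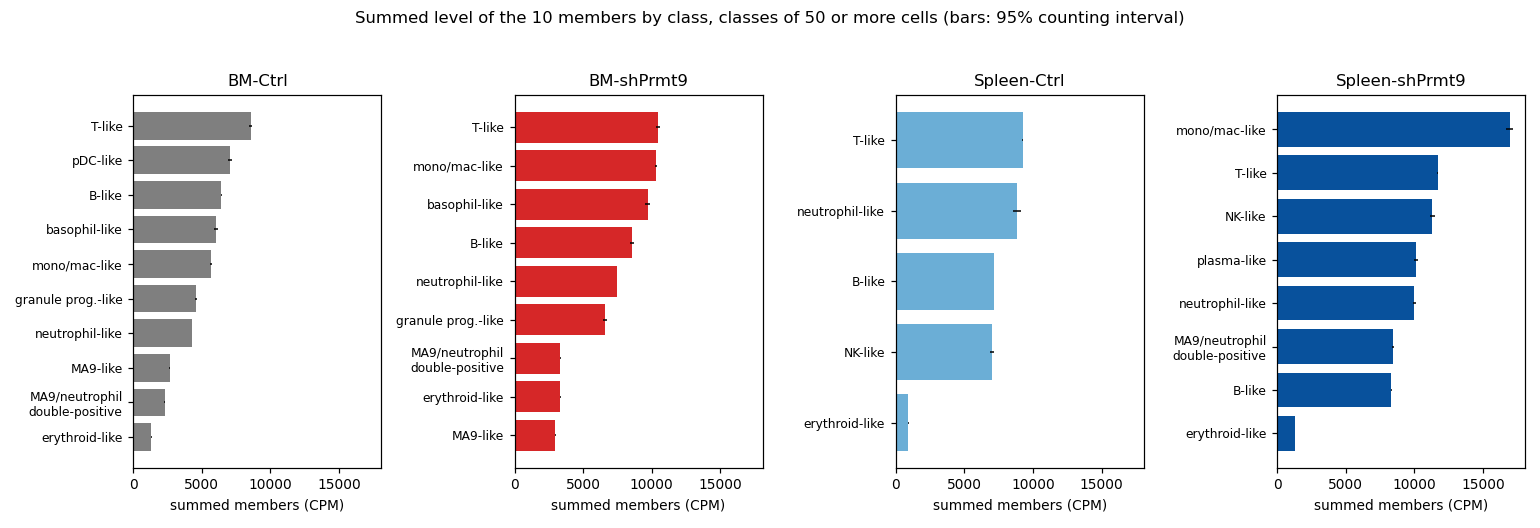
Summed level of the 10 members in CPM on a linear axis from 0, for each class of at least 50 cells in each of the 4 libraries, with bars for the 95% counting interval. T-like cells lie at 8554 to 11706 CPM in all 4 libraries, and erythroid-like cells between 904 and 3318.

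Among the classes of at least 50 cells, the single members did not all peak in the same cells. H2-K1, a classical heavy chain, was highest in T-like cells in 3 libraries, from 2382 to 3404 CPM, and in monocyte/macrophage-like cells of Spleen-shPrmt9 at 3587. H2-D1, the other classical heavy chain, was highest in neutrophil-like cells of BM-shPrmt9 (2944) and Spleen-Ctrl (2472). Tapbp, the tapasin bridge between TAP and the heavy chain, reached 382 CPM in plasmacytoid DC-like cells of BM-Ctrl and 769 in monocyte/macrophage-like cells of Spleen-shPrmt9. Nlrc5 was highest in T-like cells of 3 libraries, at 45.5 to 68.2 CPM. Its levels in MA9-like bone marrow cells were 3.04 and 2.51 CPM. Erythroid-like cells held the lowest level of all 10 members in BM-Ctrl and in both spleen libraries, while in BM-shPrmt9 the MA9-like cells were lowest for H2-D1, B2m, Tapbp and Nlrc5.

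**Figure D2:**
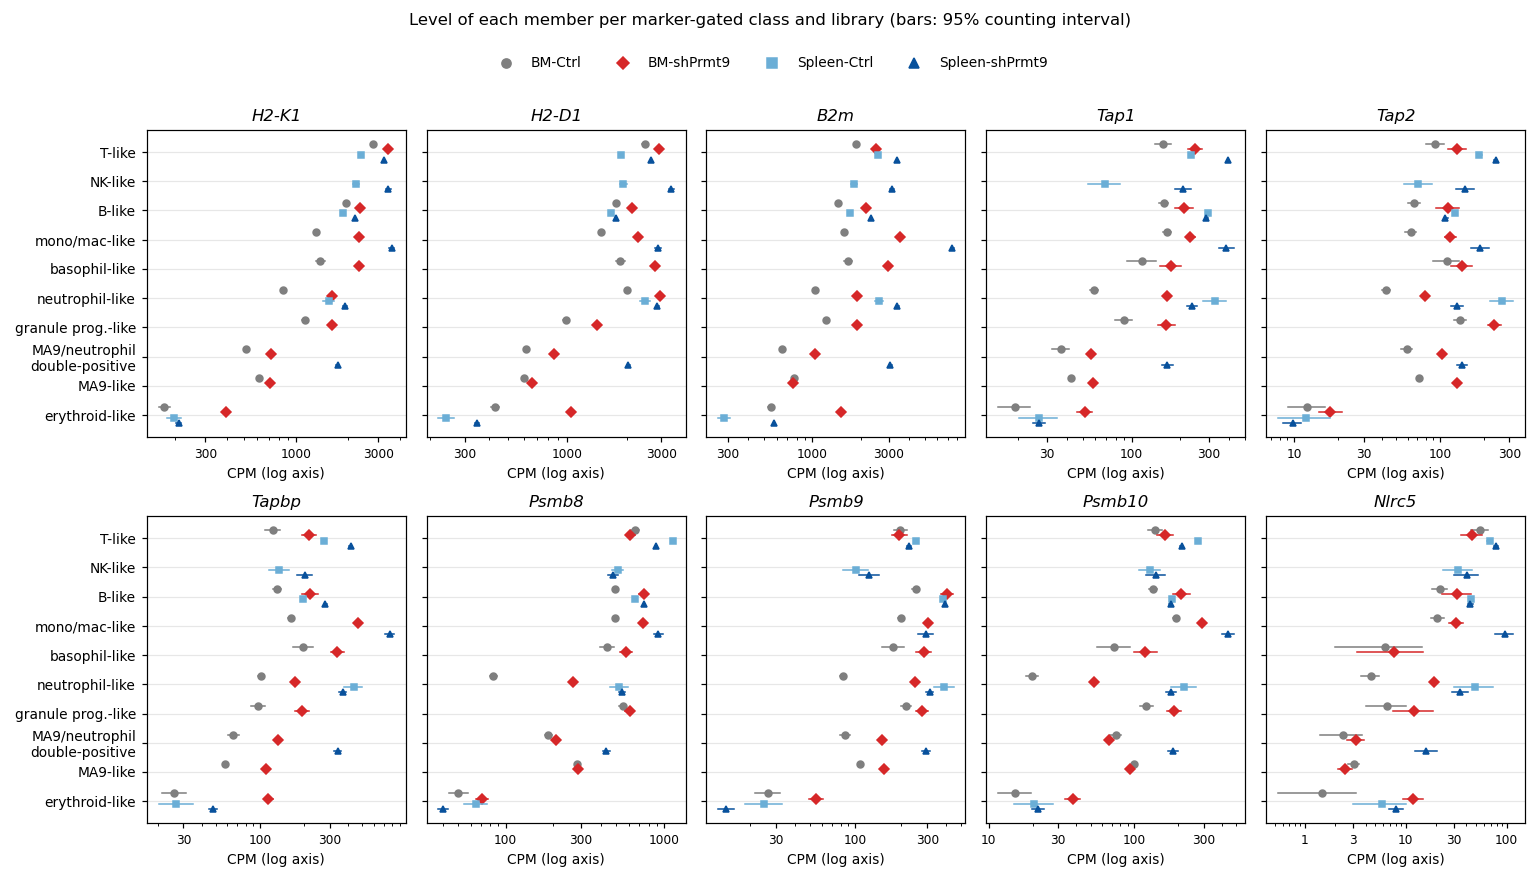
Level of each of the 10 members in CPM (log axis) in 10 classes, shown where a library had at least 50 cells, with 1 symbol per library and bars for the 95% counting interval. The red diamonds of BM-shPrmt9 lie right of the grey circles of BM-Ctrl for all 10 members in neutrophil-like and in erythroid-like cells, and B2m is nearly level in MA9-like cells at 769 and 764 CPM.

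The main question was whether the class I set differed when Prmt9 was lowered in the leukaemia. Prmt9 itself was checked first. In MA9-like bone marrow cells it went from 840 UMIs (10.9 CPM) in BM-Ctrl to 370 UMIs (6.1 CPM) in BM-shPrmt9, a ratio of 0.558 (0.493 to 0.632). In double-positive bone marrow cells the ratio was 0.502 (0.398 to 0.635). It was 0.910 (0.75 to 1.11) in neutrophil-like and 0.995 (0.722 to 1.36) in monocyte/macrophage-like cells. Whether these cells came from the host, and so lacked the hairpin, was not tested. In BM-Ctrl they were nearly without Xist (0.0750% and 0.345% of cells), as were the MA9-like cells (0.411%). In spleen, Prmt9 was also lower in T-like cells at 0.603 (0.505 to 0.720), and over all cells at 0.540 (0.489 to 0.596). The lower level in spleen was thus not confined to cells with MA9 markers.

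In the MA9-like cells of bone marrow, the members differed unevenly, with Tapbp and Tap2 higher in BM-shPrmt9 and the other 8 within 1.5-fold. Tapbp was at 57.6 CPM in BM-Ctrl and 110.1 in BM-shPrmt9, a ratio of 1.91 (1.84 to 1.99). Tap2, one chain of the peptide transporter, was at 72.0 and 131 CPM, a ratio of 1.82 (1.76 to 1.89). These were the 2 members called higher, and 0 were called lower. Of the 14628 genes tested in this class, 22.8% were higher and 16.4% lower by the same rule, so the share of members called is near the background. The median log2 ratio was 0.17 over the members and 0.05 over all genes.

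The other transporter chain Tap1 was at 42.6 and 57.8 CPM in the same cells, a ratio of 1.35 (1.29 to 1.42). H2-K1 was at 615 and 710.3 CPM (ratio 1.16), and H2-D1 at 600.0 and 661 (ratio 1.10). B2m, the light chain, was at 769 and 764 CPM with a ratio of 0.993 (0.981 to 1.01). The ratios of the displayed chains thus lay between 0.993 and 1.16. Among the immunoproteasome subunits, Psmb9 had a ratio of 1.45 (1.40 to 1.49), Psmb8 1.02 (0.997 to 1.04) and Psmb10 0.943 (0.911 to 0.977). Nlrc5 rested on 234 and 152 UMIs, and its ratio was 0.823 (0.667 to 1.01). MA9-like cells without a UMI of Xist (1213 and 854 cells) also gave 2 members higher and 0 lower, against 21.4% and 17.9% of 14457 genes.

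Interferon-stimulated genes, shown beside the members as a reference list of 10, were higher in the same MA9-like cells for 9 of 10. There 1 was lower and the median log2 ratio was 2.34, against 22.8% of all genes higher and 16.4% lower. Isg15, a ubiquitin-like protein, went from 14.7 to 84.9 CPM, and Rtp4 from 1.31 to 32.4. Ifi47, a GTPase of the interferon-gamma response, was lower, at 13 and 7.81 CPM. Neutrophil markers (12 of 12 detected) made up 2344 CPM of MA9-like cells in BM-Ctrl and 7426 in BM-shPrmt9, or 0.686% and 1.81% of their level in neutrophil-like cells, and their part in these results was not tested.

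In the double-positive cells of bone marrow Tapbp and Tap2 were again called and 3 more members with them. There 5 members were higher and 0 lower, against 22% higher and 16.5% lower of 12997 genes. Tapbp went from 65.8 to 132 CPM (ratio 2.01), Psmb9 from 85.0 to 151 (1.77), Tap2 from 59.1 to 103 (1.75), B2m from 645 to 1042 (1.61) and Tap1 from 36.6 to 56.3 (1.54). H2-K1 (1.40) and H2-D1 (1.37) did not reach 1.5-fold. Psmb8 (1.12) and Psmb10 (0.904) again stayed behind Psmb9.

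In neutrophil-like cells of bone marrow the whole set was higher in BM-shPrmt9. All 10 ratios were above 1 and 9 passed 1.5-fold, against 11.1% of the 12904 genes tested, while 0 members and 17.1% of genes were lower. The median log2 ratio was 1.18 over the members and -0.23 over all genes. This class was the largest of the marrow, with 4000 cells in BM-Ctrl and 5815 in BM-shPrmt9.

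The largest ratios were those of Nlrc5, Psmb8 and Psmb9. Psmb8, the beta5i subunit, was at 83.7 CPM in BM-Ctrl and 268 in BM-shPrmt9, a ratio of 3.20 (3.05 to 3.37). Psmb9, the beta1i subunit, was at 82.5 and 249 CPM, a ratio of 3.02 (2.87 to 3.17). Psmb10, the beta2i subunit, was at 19.7 and 53.1 CPM, a ratio of 2.69 (2.42 to 2.99). Their constitutive counterparts, taken up for this role from the pathway list, did not move with them: Psmb5 had a ratio of 1.06, Psmb6 0.969 and Psmb7 0.859. Nlrc5 went from 96 UMIs (4.48 CPM) to 903 UMIs (19.2 CPM), a ratio of 4.28 (3.46 to 5.34).

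For peptide transport in the same neutrophil-like cells, Tap1 was at 58.8 and 165 CPM, a ratio of 2.81 (2.65 to 2.99). Tap2 was at 42.5 and 79.1 CPM (ratio 1.86) and Tapbp at 101 and 173 (ratio 1.70). Among the displayed chains, H2-K1 went from 849 to 1615 CPM (ratio 1.90), B2m from 1041 to 1896 (1.82) and H2-D1 from 1999 to 2944, where 1.47 (1.46 to 1.49) fell just short of 1.5-fold.

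The neutrophil result was also present in cells without a UMI of Xist, which were 3997 in BM-Ctrl and 3168 in BM-shPrmt9. All 10 members were higher there, H2-D1 included at 1.62 (1.60 to 1.64), against 9.66% of all genes. Within BM-shPrmt9, neutrophil-like cells with Xist over those without gave 0 members past 1.5-fold, against 14.6% higher and 8.20% lower of 12360 genes. The ratio for the sum of the members was 0.891 (0.885 to 0.897). Cells without a UMI of Xist had a median of 5742 UMIs and those with one 8547, so a missing UMI does not show that a cell lacks Xist.

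In erythroid-like cells of bone marrow 8 members were higher and 0 lower, against 26.5% higher and 11.4% lower of 9661 genes. The medians were 1.30 and 0.17 on the log2 scale. Levels were low here. B2m was at 555 and 1519 CPM (ratio 2.74), H2-D1 at 429.7 and 1047 (2.44) and H2-K1 at 174 and 395 (2.27). Tapbp went from 26.0 to 114 CPM, a ratio of 4.38 (3.57 to 5.41), and Nlrc5 from 6 to 83 UMIs, a ratio of 8.08 (3.56 to 22.7). Tap2 (1.45) and Psmb8 (1.40) were not called.

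This erythroid result depended on which cells were summed. In cells without a UMI of Xist (669 and 674 cells) 4 members were higher and 3 lower, with a median log2 ratio of 0.04. Of the 7966 genes tested there, 7.56% were higher and 68.2% lower. B2m, H2-D1, Tapbp and Nlrc5 were higher there, at 2.20, 2.02, 2.78 and 4.17, and Tap2, Psmb9 and Psmb8 were lower, at 0.501, 0.463 and 0.409. Within BM-shPrmt9, erythroid-like cells with Xist had 9 of 10 members higher than cells without, as had 84.7% of all genes. Their median depths were 4636 and 4372 UMIs. In BM-Ctrl 0 erythroid-like cells had a UMI of Xist, so the split left out cells of BM-shPrmt9 only. It thus set a part of one library against the whole class of the other, and what sets that part apart was not tested.

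Monocyte/macrophage-like cells of bone marrow had 7 members higher and 0 lower, against 14.8% and 18.5% of 11946 genes. Tapbp went from 163 to 468 CPM, a ratio of 2.88 (2.69 to 3.07), and B2m from 1577 to 3535, a ratio of 2.24 (2.19 to 2.29). Tap2 had a ratio of 1.87, H2-K1 1.78, H2-D1 1.53, Nlrc5 1.53 and Psmb9 1.51. Psmb10 (1.49), Tap1 (1.39) and Psmb8 (490.3 and 734 CPM, just under 1.5-fold) were not called. The members' median log2 ratio was 0.61, beside -0.08 for all genes. With globin, mitochondrial and ribosomal protein genes taken out of the total, 4 of the 7 were still higher. Too few of these cells in BM-Ctrl had a UMI of Xist for a comparison by Xist.

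In B-like cells of bone marrow 5 members were higher and 0 lower, against 11.4% and 19.1% of 11225 genes, and all 5 lay between 1.51 and 1.71 (Tap2, Tapbp, Psmb9, Psmb10 and Psmb8). B2m at 1.49 and Nlrc5 at 1.49 lay just under the line, and the heavy chains were both at 1.20. The B-like cells numbered 1137 in BM-Ctrl and 100 in BM-shPrmt9. In T-like cells 2 members were higher and 0 lower, against 12.7% and 13.3% of 10024 genes: Tapbp at 122 and 218 CPM (ratio 1.78) and Tap1 at 157 and 247 (ratio 1.58). Psmb8 (0.931), Psmb9 (0.983) and Nlrc5 (0.841) were at or under 1 in these cells.

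T-like cells were the class in which both marrow libraries held at least 50 cells with Xist, 89 and 141. In those cells Tapbp was at 110.3 and 201 CPM, a ratio of 1.82 (1.41 to 2.37), and Tap2 at 1.66 (1.21 to 2.31), again 2 members higher and 0 lower, against 14.7% and 15.3% of 8866 genes, a share near the background. Tap1 was at 1.46 (1.17 to 1.83). Within BM-Ctrl, T-like cells with Xist over those without gave 0 members past 1.5-fold, against 13.7% higher and 11.7% lower of 9074 genes.

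Of the smaller marrow classes, basophil-like cells (89 and 83) had 7 members higher and 0 lower, against 14.6% and 14.7% of 9165 genes, led by B2m at 1665 and 2962 CPM (ratio 1.78). A UMI of Xist was found in 0% of the basophil-like cells of BM-Ctrl and 91.6% of those of BM-shPrmt9, so no comparison by Xist was possible. Granule progenitor-like cells (98 and 115) had 6 higher and 0 lower, against 14.9% and 13.4% of 10501 genes, led by Tapbp at 97.4 and 195 CPM (ratio 2.00). The granule progenitor-like count did not hold in cells without Xist, where 0 members were higher and 2 lower, against 15.3% and 33.5% of all genes. Those cells had median depths of 28480.5 UMIs in BM-Ctrl and 3308 in BM-shPrmt9. Over the 9 marrow classes with at least 50 cells in both libraries, Tapbp was past 1.5-fold in all 9, and no member was called lower in any. The share of all genes for which this holds was not counted. It did not hold in cells without Xist, where Tapbp was at 1.29 (0.999 to 1.65) in granule progenitor-like cells. Members were called lower in those cells and in erythroid-like cells without Xist. All 9 classes come from the same pair of libraries, so they do not repeat the comparison independently. In smaller marrow classes Tapbp was at 1.05 in plasmacytoid DC-like cells (100 and 14) and at 1.19 in NK-like cells (40 and 10), where Nlrc5 was lower at 0.558 (0.137 to 1.71) on 17 and 4 UMIs.

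**Figure D3:**
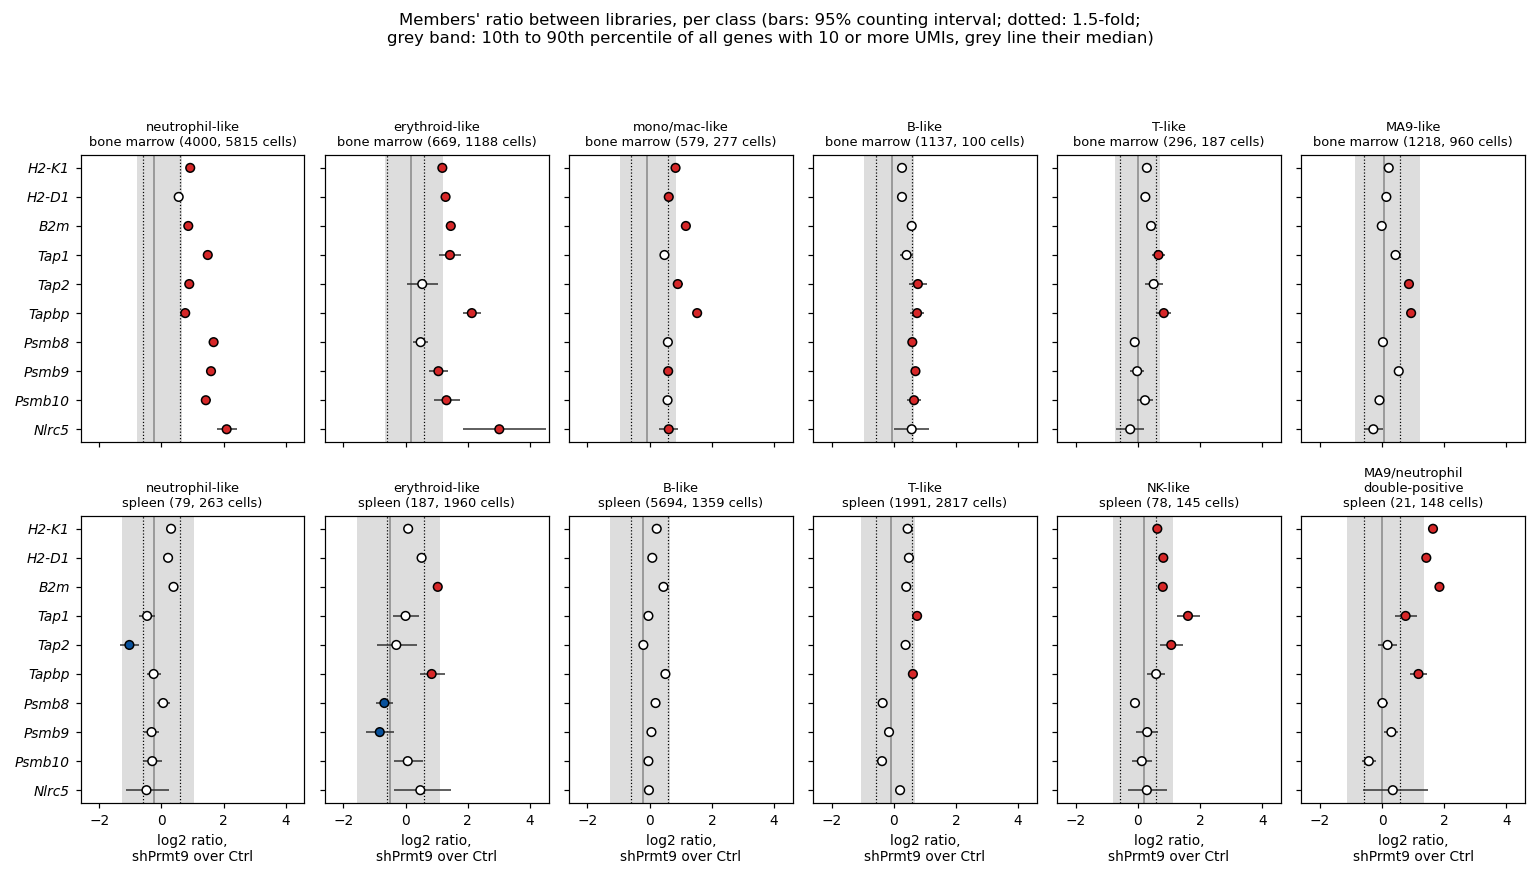
Log2 ratio of each member, shPrmt9 over Ctrl, in 6 classes per tissue, with bars for the 95% counting interval, dotted lines at 1.5-fold and a grey band from the 10th to the 90th percentile of all genes. Filled red symbols are members called higher and blue ones lower: bone marrow neutrophil-like cells have 9 red of 10, and spleen B-like cells 0.

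In spleen the same comparison gave a more divided set. T-like cells (1991 and 2817) had 2 members higher and 0 lower, against 11.6% and 21.1% of 13572 genes. Tap1 was at 233 CPM in Spleen-Ctrl and 392 in Spleen-shPrmt9, a ratio of 1.68 (1.62 to 1.74), and Tapbp at 273 and 416, a ratio of 1.53 (1.47 to 1.58). The heavy chains and B2m lay at 1.32 to 1.40. Psmb8 was on the other side at 1139 and 889 CPM, a ratio of 0.780 (0.766 to 0.795), and so was Psmb10 at 0.769 (0.740 to 0.799). CD8 T-like and CD4 T-like cells gave like values for Psmb8, 0.788 and 0.793. The intervals of Psmb8 and Psmb10 lie under 1, but neither passed 1.5-fold.

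Splenic B-like cells (5694 and 1359) had 0 members higher and 0 lower, against 11.7% and 28.4% of 14031 genes. The count higher depended on the scaling, since TMM and median-of-ratios factors both gave 2 members higher in splenic B-like cells. On the CPM scale the ratios of their members ran from 0.869 for Tap2 to 1.42 for Tapbp, and B2m was at 1718 and 2334 CPM, a ratio of 1.36 (1.34 to 1.37). NK-like cells (78 and 145) had 5 higher and 0 lower, against 27.1% and 14.7% of 9219 genes. Tap1 went from 68.2 to 208 CPM, a ratio of 3.05 (2.37 to 3.96), Tap2 from 70.8 to 148 (2.10), H2-D1 from 1918 to 3376 (1.76), B2m from 1811 to 3155 (1.74) and H2-K1 from 2235 to 3438 (1.54). Psmb8, Psmb9 and Psmb10 of the NK-like cells lay between 0.936 and 1.23.

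In splenic neutrophil-like cells (79 and 263) 0 members were higher and 1 was lower, against 17.8% and 32.2% of 8609 genes. These counts depended on the scaling: TMM and median-of-ratios factors gave 2 and 3 members higher, and averaging over cells 3 lower. Tap2 was at 267 and 131 CPM, a ratio of 0.490 (0.400 to 0.603). B2m (1.31), H2-K1 (1.24) and H2-D1 (1.16) were above 1, while Tap1 (0.727), Nlrc5 (0.717) and Psmb9 (0.803) were under it. In Spleen-Ctrl the summed members of these cells were already at 8823 CPM, and in the BM-Ctrl neutrophil-like cells at 4282.

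Splenic erythroid-like cells (187 and 1960) had 2 members higher and 2 lower, against 15.1% and 46.1% of 9312 genes. B2m was at 283 and 578 CPM (ratio 2.05) and Tapbp at 26.8 and 48.1 (1.79). Psmb8 was at 64.7 and 40.4 (0.624) and Psmb9 at 24.9 and 14 (0.563). Here the weight given to each cell decided the sign: averaged over cells instead of summed, Psmb8 was at 1.03 and Psmb9 at 1.54. TMM and median-of-ratios factors shifted all erythroid-like genes of spleen upward by 0.56 and 0.67 on the log2 scale, and leaving out globin, mitochondrial and ribosomal protein genes by 0.24. These shifts left Psmb8 and Psmb9 under 1 but no longer called lower.

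Classes with few cells in Spleen-Ctrl are given as values. Monocyte/macrophage-like cells (24 and 84) had B2m higher, at 4599.8 and 7419 CPM (ratio 1.61), and Tap2 lower, at 302 and 189 (0.627), so 1 higher and 1 lower against 22.9% and 25.8% of 7674 genes. The double-positive cells (21 and 148) had 5 higher and 0 lower, against 26.0% and 23.9% of 9679 genes. Their B2m went from 853 to 3064 CPM (ratio 3.59), H2-K1 from 562 to 1747 (3.11), H2-D1 from 762 to 2041 (2.68), Tapbp from 151 to 340.0 (2.25) and Tap1 from 98.0 to 165 (1.69). Psmb8 (1.01) and Psmb10 (0.744) did not follow them.

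The splenic MA9-like cells were only 15 and 7. They had 4 members higher and 3 lower, against 22.5% and 31.9% of 6970 genes. H2-K1 was at 806 and 2119.9 CPM (ratio 2.63), H2-D1 at 757 and 1950.4 (2.58) and B2m at 940.3 and 2432 (2.59), with Tapbp at 2.08. The immunoproteasome subunits were lower, Psmb8 at 0.586, Psmb9 at 0.631 and Psmb10 at 0.377. With the double-positive cells added, 0 members were lower and Psmb9 was at 1.11.

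The members were then counted per cell at equal depth, with every cell thinned at random to 1000 UMIs. Neutrophil-like cells of bone marrow had a median of 4 member UMIs in BM-Ctrl and 8 in BM-shPrmt9, after leaving out 57 and 98 shallower cells. Without thinning the medians per 1000 UMIs were 4.37 and 7.99. Monocyte/macrophage-like cells had 6 and 11, B-like cells 6 and 10 and T-like cells 8 and 11. MA9-like cells had 2 and 3, and 10.7% and 7.08% of them had none at this depth. Medians of such small counts are coarse: the summed members of MA9-like cells were at 2648 and 2973 CPM, a ratio of 1.12 (1.12 to 1.13).

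In spleen the thinned medians lay closer together, at 10 and 12 in T-like cells, 7 and 9 in B-like cells and 9.5 and 10 in neutrophil-like cells. Erythroid-like cells had a median of 0 in both spleen libraries, and there is no value to compare at this depth. The double-positive cells of Spleen-shPrmt9 had a median of 8, and those of the marrow 2 and 3.

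**Figure D4:**
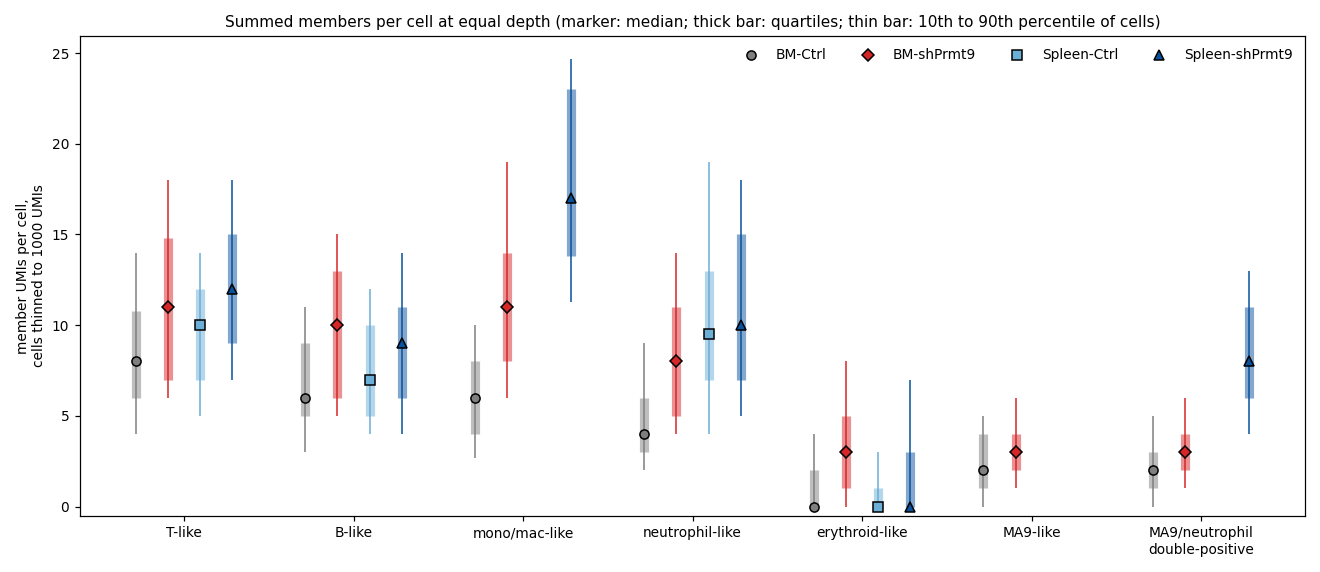
Member UMIs per cell after thinning every cell to 1000 UMIs, for 7 classes and the libraries with at least 50 such cells, with the median, the quartiles and the 10th to 90th percentile of cells. The 2 marrow libraries are furthest apart in monocyte/macrophage-like cells (medians 6 and 11), and erythroid-like spleen cells lie at a median of 0.

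The other genes of the class I pathway, a list of 35, were counted in the same way. In bone marrow 17 of 35 were higher and 1 lower in neutrophil-like cells, where 11.1% of all genes were higher. There were 18 higher and 1 lower in erythroid-like cells (26.5% of all genes higher), and 14 and 1 in monocyte/macrophage-like cells (14.8%). Of the 34 tested in T-like cells, 11 were higher and 2 lower (12.7%). The counts of 6 and 1 in B-like cells (11.4%) and 6 and 2 in MA9-like cells (22.8%) lay near or under the background. In spleen the counts were 7 and 2 in T-like cells (11.6%), 10 and 4 in B-like cells (11.7%), 16 and 2 of 32 in NK-like cells (27.1%), and 8 and 7 of 33 in neutrophil-like cells (17.8% higher and 32.2% lower).

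By the fixed rule of size, the pathway genes given for bone marrow MA9-like cells are H2-T24, a nonclassical class I gene, at 0.962 and 5.32 CPM (ratio 5.53), Lnpep, an aminopeptidase, at 51.1 and 31.1 (0.608), and Rfx5, a subunit of the RFX factor that binds the X box, at 4.88 and 3.23 (0.663). In the few splenic MA9-like cells they are Npepps (2.58) and H2-T23 (2.36) among the higher and Psme3 (0.302) and Irf1 (0.465) among the lower. In this class 0 pathway genes were called in the same direction in both tissues.

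The interferon reference list is given beside the members for the other classes too. In bone marrow 10 of 10 were higher in neutrophil-like, erythroid-like, monocyte/macrophage-like and B-like cells, with median log2 ratios of 2.73, 3.75, 1.94 and 2.36 in that order. Of all genes 11.1%, 26.5%, 14.8% and 11.4% were higher there. In marrow T-like cells 9 of 10 were higher, against 12.7%. In spleen 7 were higher and 1 lower in B-like cells, against 11.7% and 28.4%, where no member was called on the CPM scale. In splenic T-like cells 8 were higher, against 11.6%. Splenic neutrophil-like cells had 5 higher and 3 lower, against 17.8% and 32.2% of all genes, so the share lower was near the background. Gbp2, an interferon-gamma induced GTPase, went from 1461 to 671 CPM in the latter, while Irf7 went from 115 to 607.

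**Figure D5:**
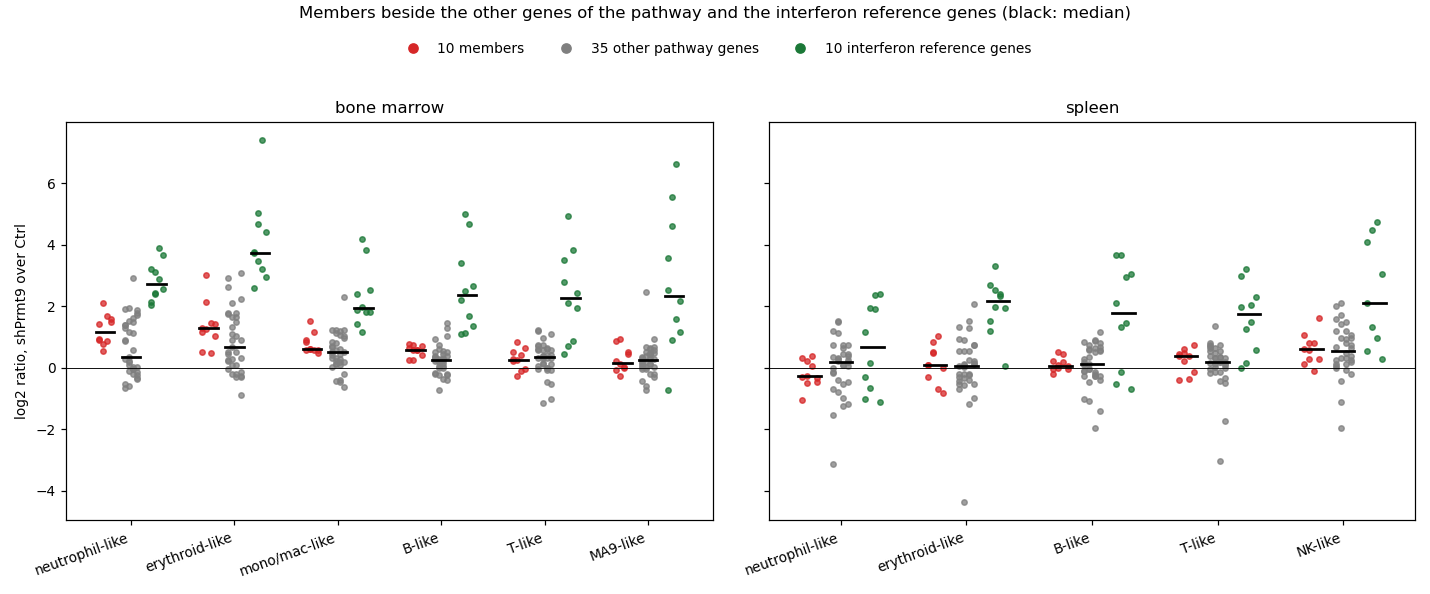
Log2 ratio, shPrmt9 over Ctrl, of the 10 members (red), the 35 other pathway genes (grey) and the 10 interferon reference genes (green) in 6 marrow and 5 spleen classes, 1 point per gene with a black line at the median. In neutrophil-like cells of bone marrow the medians are 1.18 for the members, 0.34 for the pathway genes and 2.73 for the reference genes.

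Over the 32 sums of class and library with at least 50 cells, the members' levels varied together. The correlation of each member with the mean of the other 9, on the log2(CPM + 1) scale, ran from 0.77 for Nlrc5 to 0.96 for Tap1. Among 7631 other genes the most alike was Psme1, a subunit of the proteasome activator PA28, with r = 0.968, followed by its partner Psme2 (0.932), Tnrc6a (0.899), the nonclassical class I gene H2-M3 (0.896) and Lgals8 (0.895). Of these, H2-M3 also holds the TGACG and ATTGG pair of the printed H2-K1, H2-D1 and B2m stretches. The sums share libraries and differ in depth, so these correlations are a description.

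Markers of other cells moved with the arm as well. Neutrophil markers went from 1705 to 4816 CPM in T-like, from 1546 to 3892 in B-like, from 3313 to 6364 in monocyte/macrophage-like and from 2369 to 5977 in erythroid-like marrow cells, and all 12 were detected. In spleen, erythroid markers went from 300.5 to 2516 CPM in T-like and from 315 to 1906 in B-like cells. Their part in the members' levels was not tested.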

How the data were processed

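Libraries were made with the Chromium Single Cell 3′ v2 kit per the labels. The matrices deposited by the authors hold unnormalized UMI counts, barcodes by genes, from Cell Ranger (6.0.2 in the file headers, 6.1.1 in the submitters' processing notes, which name the build mm10). The annotation counted against is not given in the sources used here. Barcodes under 200 genes or over 20% mitochondrial UMIs were dropped, and the highest Scrublet scores (scanpy 1.11.5, 0.8% per 1000 cells) were left out as doublets, 520 to 999 per library, because Scrublet's own threshold marked 0 to 183.

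A cell entered a class when at least 3 of its markers were detected, its score passed 0.25 and the second score was at most 0.75 of the first. This gate was set on the files. The members, marker lists and reference lists were chosen with earlier results of these data known. The pathway genes named for MA9-like cells are the 2 highest and 2 lowest ratios per tissue with at least 50 UMIs, and those called alike in both tissues. One of the genes so chosen is not reported here. The ratio code was tested on simulated data. Intervals are exact conditional binomial for ratios and exact Poisson for levels. Alternatives used TMM factors (edgeR 4.0.16), median-of-ratios factors, other totals, gates, filters and a fold of 2, with cells split by Xist, the double-positive cells and a minimum of 100 UMIs added after seeing the data. Reads shared with other genes may be lost in counting: 9.53% of the 50-base words in the last 500 bases of H2-D1, 0.443% of those of H2-K1 and 0 of the other members' occur in another gene. Python 3.11.15 and R 4.3.3 were used.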

Additional observations from a re-analysis of the deposited data

Results flagged for a closer look

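For 3 pairs of values a member was called in opposite directions in the 2 tissues within the same class. How many of all genes were called so was not counted. In marrow monocyte/macrophage-like, neutrophil-like and erythroid-like cells, 14.8%, 11.1% and 26.5% of all genes were higher. In spleen, 25.8%, 32.2% and 46.1% were lower, in the same order of classes. Tap2 was higher in monocyte/macrophage-like cells of bone marrow at a ratio of 1.87 and lower in those of spleen at 0.627. Tap2 was also higher in neutrophil-like cells of bone marrow at 1.86 and lower in those of spleen at 0.490. Psmb9 was higher in erythroid-like cells of bone marrow at 2.08 and lower in those of spleen at 0.563. With 1 library per tissue and arm, the difference was not tested in any of these. The calls also depended on the processing: Tap2 in spleen monocyte/macrophage-like cells was no longer called lower under TMM factors, median-of-ratios factors or averaging over cells, and Psmb9 was at 1.54 in spleen erythroid-like cells averaged over cells and at 0.463 in marrow erythroid-like cells without Xist. The spleen classes concerned had 24, 79 and 187 cells in Spleen-Ctrl.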

How the results depend on the processing

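With 1 library per group, no result has a replicate check, and depth limits the spleen MA9-like, double-positive and monocyte/macrophage-like classes most. No paired analysis was possible because each group is 1 library and no result comes from a test. Counts of members called stood within 1.5 times of the reported ones in every class with no minimum of UMIs, at 100 UMIs and at 1000 UMIs per cell. The stricter gate moved 1 of 17 counts of members higher, granule progenitor-like cells, to 3.

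A fold of 2 took the members higher to 0 in bone marrow B-like, MA9-like, T-like, basophil-like and granule progenitor-like cells and in spleen T-like and monocyte/macrophage-like cells, to 1 in spleen erythroid-like and bone marrow double-positive, to 2 in spleen NK-like and bone marrow monocyte/macrophage-like and to 5 in neutrophil-like cells, and the members lower to 1 in spleen MA9-like and 0 in erythroid-like and monocyte/macrophage-like cells. TMM and median-of-ratios factors both gave 2 members higher in spleen B-like and 2 in monocyte/macrophage-like cells, 6 and 7 in erythroid-like and 2 and 3 in neutrophil-like cells, with 0 lower in erythroid-like and monocyte/macrophage-like cells. These factors moved all genes by over 0.1 (log2) in 7 comparisons, upward by 0.23 to 0.24 in bone marrow neutrophil-like cells and downward to -0.15 and -0.14 in erythroid-like ones.

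Averaging over cells gave 8 higher and 0 lower in spleen erythroid-like, 2 and 0 in monocyte/macrophage-like, 3 lower in neutrophil-like and 1 higher in marrow granule progenitor-like cells, and turned Psmb8 (1.03) and Psmb9 (1.54) in spleen erythroid-like cells. Without globin, mitochondrial and ribosomal protein genes there were 1 higher in spleen T-like, 4 higher and 0 lower in erythroid-like, 4 higher in bone marrow monocyte/macrophage-like and 1 lower in spleen double-positive cells. Keeping doublets gave 2 higher in spleen monocyte/macrophage-like and 1 lower in MA9-like cells, and leaving out the top cell gave 1 lower in spleen erythroid-like cells.

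Of the alternatives added after seeing the data, the double-positive cells brought the members lower in spleen MA9-like cells to 0 and turned Psmb9 (1.11). Cells without Xist gave 4 higher and 3 lower in bone marrow erythroid-like cells and 0 and 2 in granule progenitor-like cells. Of the members called there before, H2-K1 (0.936), Psmb9 (0.463) and Psmb10 (0.825) turned in the former and B2m (0.760), Tap1 (0.806), Psmb10 (0.903) and Nlrc5 (0.468) in the latter. Members not called before also fell under 1, namely Tap2 (0.501) and Psmb8 (0.409) in the former and H2-K1 (0.784), H2-D1 (0.959), Psmb8 (0.589) and Psmb9 (0.924) in the latter. The causes were not tested. Scaling alternatives do not apply to the thinned counts and were not run on them.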
